A study of Mus musculus with 16 samples.

Results

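The genes described here were 10 members of the TNF superfamily system, namely the receptors Tnfrsf1a, Tnfrsf1b and Tnfrsf21, the ligands Tnfsf9, Tnfsf12 and Tnfsf13b, the adaptors Traf1 and Traf2, and the ubiquitin ligases Birc2 and Birc3. They were chosen by gene symbol from the 24421 genes of the count files. The rule uses no measured value, but the genes were proposed with earlier results of these data known. Of the 10 genes, 9 had enough reads to enter the test, which ran over 9642 genes in all, and Tnfsf13b did not.

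The libraries were bulk RNA-seq of CD11b+ myeloid cells (live, positive for CD45 and Kaede, negative for TER119 and NK1.1) sorted from MC38-Ova tumours, a mouse colorectal tumour line that expresses ovalbumin, grown in Kaede transgenic C57BL/6 mice. Violet light on the tumour turned the Kaede protein of the cells then in it from green to red. Kaede-red cells had therefore been in the tumour since the light pulse, 24h or 72h before collection, whereas Kaede-green cells had entered after it. Each of the 4 groups, Kaede-green 24h, Kaede-red 24h, Kaede-green 72h and Kaede-red 72h, had 4 libraries, which the study describes as independent mice. Whether a Kaede-green and a Kaede-red library came from the same tumour is not stated in the sample titles, and the main fit used no pairing. All animals carried the Kaede transgene and a tumour, were listed as controls with no treatment, and shared 1 batch label, and the study kept its mice as young adults. The sort took all CD11b+ cells that lacked NK1.1, so each library is a mixture of myeloid cell types, and in such bulk samples fewer cells of a type and less RNA per cell cannot be told apart.

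TNF superfamily ligands are mostly membrane-bound trimers that bind receptors on the same or neighbouring cells. Receptors with a death domain, such as TNFR1, assemble adaptor complexes that can lead to NF-κB activation or to cell death, while receptors without one, such as TNFR2, recruit TRAF proteins directly. TRAF2 brings in the cIAP ubiquitin ligases, which build the ubiquitin chains that carry the NF-κB signal and which also keep the non-canonical NF-κB kinase low. In macrophages the system is known for inflammatory activation, survival and the control of death after TNF.

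The libraries held between 3216858 and 15423085 counts, most of them on Rn45s, the precursor of ribosomal RNA, which took 79.0 to 93.4% of the counts in Kaede-green libraries and 55.8 to 84.9% in Kaede-red libraries. Outside Rn45s the Kaede-green libraries held 468092 to 912689 counts and the Kaede-red libraries 758192 to 5472477, so Kaede-green values rest on fewer reads. Levels are given as normalised read counts (CPM), that is counts relative to the library size after scaling by the trimmed mean of M-values (TMM), and 1 read was worth 0.243 to 0.558 CPM in Kaede-green and 0.0211 to 0.181 CPM in Kaede-red libraries. Without the TMM factors the median log2 fold change of all tested genes between Kaede-red and Kaede-green cells moved from 0.06 to 2.20 over both times, and every fold change here is relative to the TMM scale. All 10 monocyte and macrophage markers examined were detected in every library, with a summed level of 844 to 2600 CPM, and of the 8 neutrophil markers in the files, Csf3r and Mmp8 had reads in every library and Ngp in none.

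The promoters of the 3 receptors are shown because all 3 genes rose with time in Kaede-red cells, as described further on. They are the RefSeq sequences of build GRCm38.p6, spanning the annotated start, written 5′ to 3′ on the strand of the gene. Capitals mark matches to the interferon-gamma activated site (GAS, TTCNNNGAA), to which STAT factors are known to bind. The Tnfrsf1a window is chr6:125349473-125349772 on the + strand, the Tnfrsf1b window chr4:145246821-145247120 on the - strand and the Tnfrsf21 window chr17:43016305-43016604 on the + strand.
Tnfrsf1a: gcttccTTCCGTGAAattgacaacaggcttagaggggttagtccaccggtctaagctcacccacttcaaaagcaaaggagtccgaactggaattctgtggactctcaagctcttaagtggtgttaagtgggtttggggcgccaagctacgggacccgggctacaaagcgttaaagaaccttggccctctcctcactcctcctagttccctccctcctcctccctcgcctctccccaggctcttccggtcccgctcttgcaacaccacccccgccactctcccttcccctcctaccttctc
Tnfrsf1b: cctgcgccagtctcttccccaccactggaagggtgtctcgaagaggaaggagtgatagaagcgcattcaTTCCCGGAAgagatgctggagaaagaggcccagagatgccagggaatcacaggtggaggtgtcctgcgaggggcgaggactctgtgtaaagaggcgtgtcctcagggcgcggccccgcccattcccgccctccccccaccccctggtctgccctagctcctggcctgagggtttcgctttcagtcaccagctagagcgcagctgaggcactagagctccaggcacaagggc
Tnfrsf21: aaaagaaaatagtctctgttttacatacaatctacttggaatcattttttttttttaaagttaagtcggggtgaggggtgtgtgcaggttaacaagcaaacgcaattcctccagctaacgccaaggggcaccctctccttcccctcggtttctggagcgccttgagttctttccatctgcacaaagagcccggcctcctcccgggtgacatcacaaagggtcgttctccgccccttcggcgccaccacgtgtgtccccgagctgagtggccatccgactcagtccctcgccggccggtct
A GAS match lay 244 bases before the start of Tnfrsf1a and 181 bases before that of Tnfrsf1b, and Tnfrsf21 had none. Among all 32851 promoters of this length, 8.30% held such a match on either strand. The table held promoters for 8 of the 10 genes, 10 windows in all, and not for Tnfsf9 and Tnfsf12. GAS was in 2 of these 10 windows against 8.30% of all promoters, and the 2 were those of Tnfrsf1a and Tnfrsf1b. The NF-κB consensus was in 0 of these 10 windows against 4.51% of all promoters, the PU.1 motif GAGGAAGT in 0 against 3.20%, and the AP-1 motif TGANTCA in 2 against 7.81%. Both AP-1 matches were 1 site seen from the alternative starts of Tnfsf13b, 127 bases before the later start. A match of letters is a description of the window and no evidence of binding.

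Per length of transcript, expressed as CPM divided by length (RPKM) over the exons of GENCODE M21, the receptors of TNF itself stood well above the other genes. Tnfrsf1a, which encodes TNFR1, was the highest of the 10 in Kaede-green 24h cells at 11.3 ± 2.18 RPKM (SD, n = 4), in Kaede-red 24h cells at 8.68 ± 1.37 and in Kaede-green 72h cells at 10.4 ± 0.934. Tnfrsf1b, which encodes TNFR2, was next in these groups, at 8.91 ± 1.74, 7.70 ± 2.99 and 6.97 ± 1.81 RPKM. The ranges of both genes overlapped at 24h in either colour, whereas in Kaede-green 72h cells the highest Tnfrsf1b library, at 9.32, lay below the lowest Tnfrsf1a library, at 9.61. In Kaede-red 72h cells the order was turned, with Tnfrsf1b at 15.8 ± 1.52 and Tnfrsf1a at 13.9 ± 1.28 RPKM, and their ranges, 13.9 to 17.3 and 12.7 to 15.6, overlapped.

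Below the TNF receptors, Birc3, Birc2, Tnfsf12, Tnfsf9 and Tnfrsf21 had mean levels between 0.966 and 3.23 RPKM in every group, and genes next to each other in the order of means within a group had overlapping ranges. That order differed between groups, and Birc2 went from the highest of these 5 in Kaede-green 72h cells, at 2.66 ± 0.312, to the lowest in Kaede-red 72h cells, at 1.47 ± 0.266. Traf1 and Traf2 lay lower, at 0.485 to 0.675 and 0.229 to 0.851 RPKM. Tnfsf13b was the lowest gene of all in each group, at 0.0278 to 0.0920 RPKM. The level of a gene per length compares genes, and the comparisons between groups below use CPM.

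**Figure D1:**
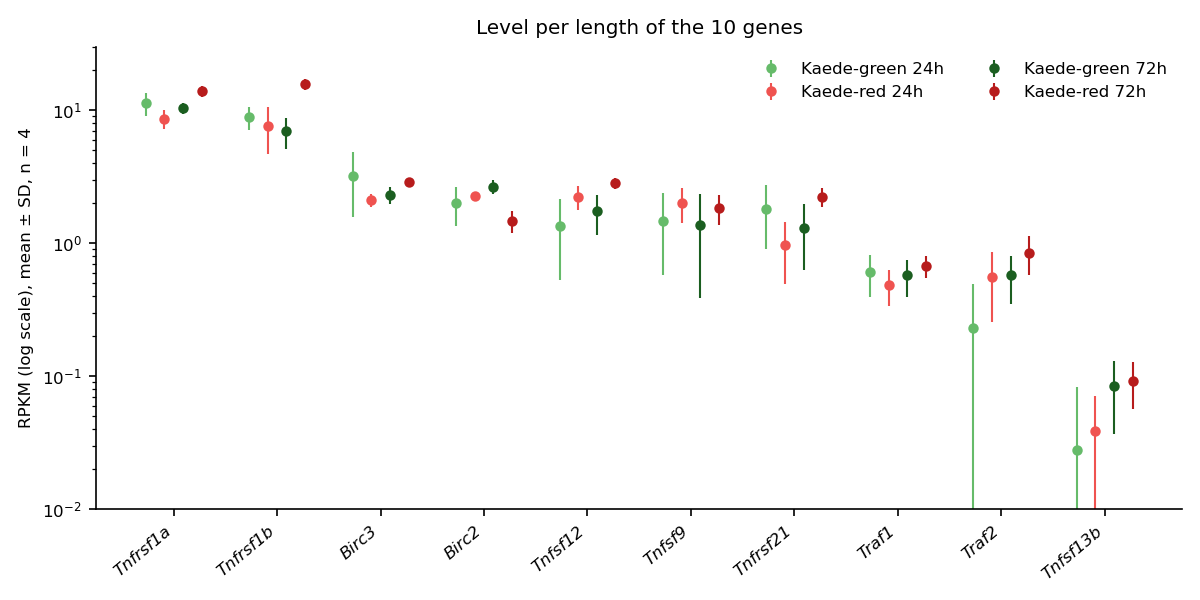
Mean RPKM ± SD of 4 libraries for each of the 10 genes, on a log axis, with the 4 groups in colour and bars that reach 0 running off the axis. Tnfrsf1a and Tnfrsf1b sit between 6.97 and 15.8 RPKM in every group, and Tnfsf13b is lowest at 0.0278 to 0.0920.

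TNFR2 was called both between the colours at 72h and between the times in Kaede-red cells. Tnfrsf1b stood at 32.3, 43.4, 32.6 and 27.8 CPM in the Kaede-green libraries at 24h and at 42.5, 35.2, 18 and 21.8 CPM in the Kaede-red libraries at 24h. At 72h the Kaede-green libraries had 23.4, 19.5, 28.0 and 35.6 CPM and the Kaede-red libraries 66.1, 63.7, 57.9 and 53.2 CPM. All 4 Kaede-red 72h libraries lay above all other libraries of the series, and the other 3 groups overlapped each other.

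**Figure D2:**
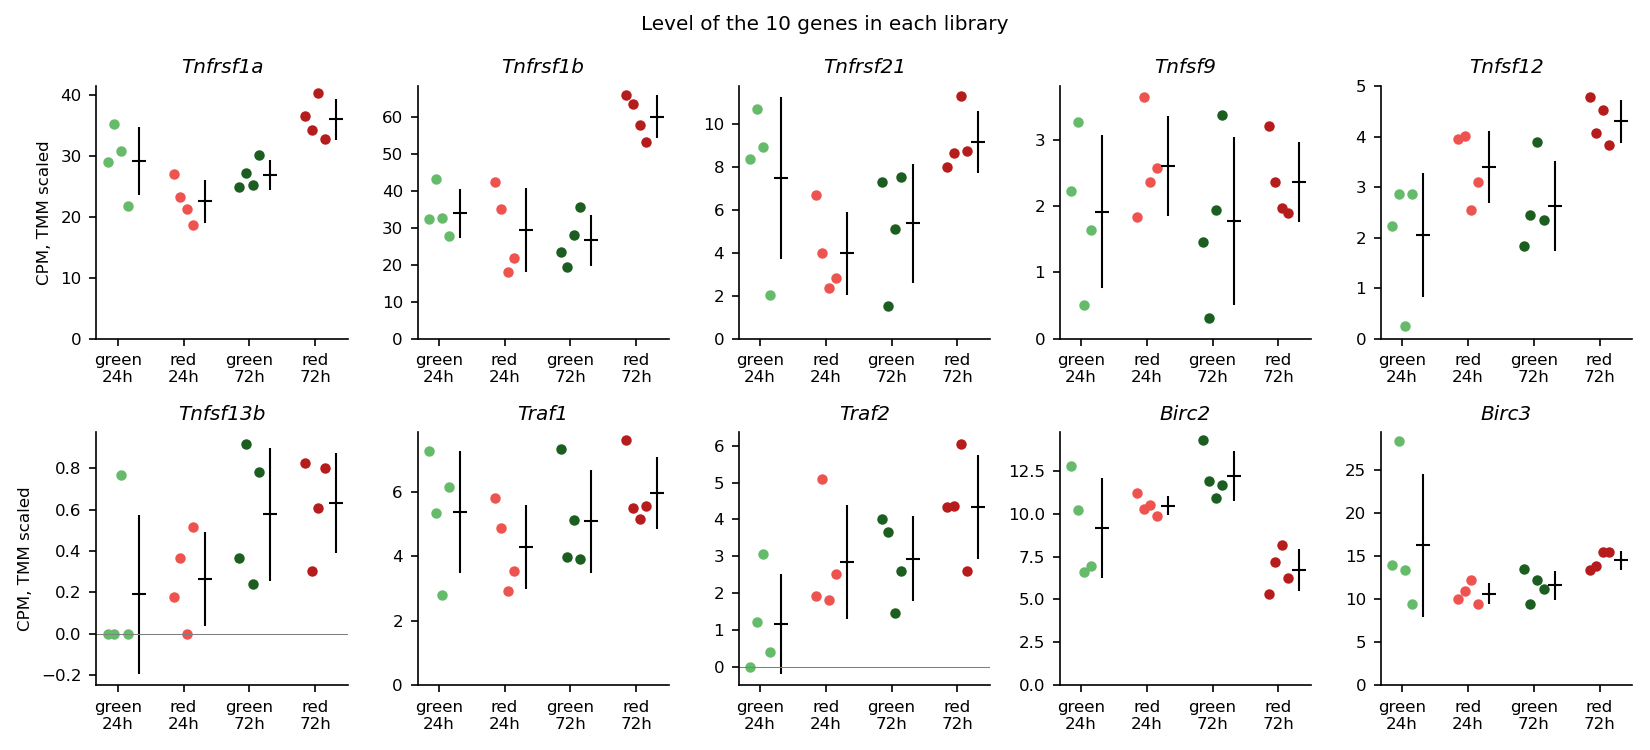
CPM of each of the 10 genes in the 16 libraries by group, 1 point a library, with the mean ± SD of the 4 libraries at the right of each group. The Kaede-red 72h points of Tnfrsf1b sit between 53.2 and 66.1 CPM, above every other library, and those of Birc2 sit between 5.32 and 8.17 CPM, below every Kaede-red 24h and Kaede-green 72h library.

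At 72h, the comparison of cells that had stayed for the full period with those that entered in it, Tnfrsf1b was 2.25-fold higher in Kaede-red than in Kaede-green cells (log2 fold change 1.17, SE 0.23, adjusted p = 0.000522, edgeR quasi-likelihood test with Benjamini-Hochberg adjustment). Tnfrsf1b and Birc2 were the 2 of 9 tested genes that were called at 72h, against 16.8% of all tested genes. In the direction of the Kaede-red cells 1 was called against 8.06% of all genes, and in the opposite direction 1 against 8.76%. The call of Tnfrsf1b at 72h was kept without any 1 of the 16 libraries. With the Rn45s share of each library as a covariate the log2 fold change was 0.47 (adjusted p = 0.717), a setting that left 1.05% of all tested genes called. The Rn45s share was lower in every Kaede-red 72h library, at 55.8 to 73.8%, than in every Kaede-green 72h library, at 79.0 to 91.0%. The colours separated at 24h too, at 66.2 to 84.9% in Kaede-red and 86.5 to 93.4% in Kaede-green libraries. At each time the share therefore cannot be told apart from the colour.

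Birc2, which encodes cIAP1, went the other way. Its levels were 14.3, 11.9, 10.9 and 11.7 CPM in the Kaede-green 72h libraries and 5.32, 7.19, 8.17 and 6.23 CPM in the Kaede-red 72h libraries, with no overlap. Birc2 fell by 0.87 on the log2 scale (SE 0.23, adjusted p = 0.00807, edgeR), and on library size alone it turned to 1.12 where the median gene stood at 2.04. The call was lost with no filter on low counts (adjusted p = 0.0687) and with the Rn45s share as a covariate (log2 fold change -0.89, adjusted p = 0.370).

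Of the other receptors and cIAPs, none passed the edgeR test at 72h. Among genes with at least 10 counts in every library Tnfrsf1a passed (0.43, adjusted p = 0.0374, edgeR), where 42% of all genes were called. With no filter on low counts Tnfrsf21 passed (0.91, adjusted p = 0.0389, edgeR), where 9.57% of all genes were called. Tnfrsf1a had 24.9, 27.2, 25.3 and 30.2 CPM in Kaede-green 72h libraries and 36.5, 34.3, 40.4 and 32.8 CPM in Kaede-red 72h libraries, without overlap (log2 fold change 0.42, 95% interval 0.03 to 0.80, adjusted p = 0.132). Tnfrsf21, which encodes the death receptor DR6, had 7.31, 1.53, 5.11 and 7.54 against 7.99, 8.67, 11.3 and 8.74 CPM. Its libraries did not overlap either (0.76, interval 0.01 to 1.51, adjusted p = 0.160), but the Kaede-green ones held 5 to 29 reads of it. The libraries did not overlap for 4 of 9 genes at 72h, Tnfrsf1a, Tnfrsf21 and the called pair, against 22.6% of all tested genes. Birc3, which encodes cIAP2, had 9.46 to 13.5 CPM in Kaede-green 72h cells and 13.3 to 15.4 CPM in Kaede-red 72h cells, and the groups overlapped by 1 library (0.32, interval -0.18 to 0.82, adjusted p = 0.402).

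At 24h, 0 of the 9 genes were called by edgeR between Kaede-red and Kaede-green cells, against 7.50% of all tested genes, and the libraries overlapped for all 9, against 12.5% of all genes that did not. At an unadjusted p under 0.05 there were 2 of the 9, Tnfrsf21 and Birc3, against 20.8% of all genes, and DESeq2 called 0 of the 9, against 9.74% of all genes. Tnfrsf21 had 8.36, 10.7, 8.92 and 2.04 CPM in Kaede-green 24h libraries and 6.68, 4.01, 2.36 and 2.84 CPM in Kaede-red 24h libraries (log2 fold change -0.90, SE 0.39, adjusted p = 0.174). Kaede-green 24h replicate 4 was the lowest library of its group for this gene, on 5 reads. Without that library Tnfrsf21 (adjusted p = 0.0346, edgeR) and Birc3 (0.0343) were called. The share of all genes called in that fit is not given here. Birc3 had 13.9, 28.3, 13.3 and 9.41 CPM in Kaede-green and 9.93, 10.9, 12.2 and 9.37 CPM in Kaede-red libraries at 24h (-0.62, SE 0.25, adjusted p = 0.141). Tnfrsf1a and Tnfrsf1b gave -0.38 (interval -0.77 to 0.02) and -0.21 (interval -0.69 to 0.27).

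Over both times, Tnfrsf1b was the 1 gene of the 9 that was called (log2 fold change 0.48, SE 0.17, adjusted p = 0.0362, edgeR), against 20.3% of all genes in either direction and 10% higher in Kaede-red cells. Its libraries overlapped, as did those of all 9 genes, against 2.94% of genes without overlap. Leaving out single libraries ended the call for 10 of the 16, with adjusted p between 0.0581 and 0.117, and it held without Kaede-green 24h replicate 2, Kaede-green 72h replicate 4, or replicate 3 or 4 of either Kaede-red group. In a fit with the Rn45s share as a covariate its log2 fold change was -0.18 (adjusted p = 0.886). The share separated the colours at each time, as given above. The comparisons share libraries, so their values stand side by side and are not independent. The median log2 fold change of the 9 genes over both times was 0.02, beside 0.06 over all tested genes.

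Within Kaede-red cells, the 3 receptors rose from 24h to 72h. Tnfrsf1b rose 2.04-fold (log2 fold change 1.03, SE 0.23, adjusted p = 0.00454, edgeR), and this call was kept without any 1 library. Tnfrsf1a had 27.1, 23.2, 21.2 and 18.6 CPM at 24h and rose 1.59-fold to the 72h levels above (0.67, SE 0.18, adjusted p = 0.0212). Tnfrsf21 rose 2.24-fold from its 24h levels (1.17, SE 0.34, adjusted p = 0.0296). In each of the 3 genes, every 72h library lay above every 24h library. These were 3 of the 9 genes called, against 8.68% of all genes in either direction and 4.92% that rose.

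The calls of Tnfrsf1a and Tnfrsf21 with time in Kaede-red cells depended on single libraries. Without Kaede-red replicate 3 of either time, Kaede-red 24h replicate 4 or Kaede-red 72h replicate 1, 1 of the 9 genes was called, Tnfrsf1b, with adjusted p of 0.0553 to 0.104 for Tnfrsf1a. Tnfrsf21 was lost without any 1 of the Kaede-red libraries except Kaede-red 24h replicate 1, with adjusted p of 0.0560 to 0.127. In these fits the log2 fold change of Tnfrsf1a was 0.59 to 0.67 and that of Tnfrsf21 1.01 to 1.23. Tnfrsf1a was lost as well with libraries thinned to equal counts outside Rn45s (0.53, adjusted p = 0.0768). With the Rn45s share as a covariate, a setting that left 1.14% of all genes called, all 3 calls were lost, at 0.78 for Tnfrsf1b (adjusted p = 0.0571), 0.58 for Tnfrsf1a (0.147) and 0.88 for Tnfrsf21 (0.229). On library size alone, which left 0.0933% of all genes called, they were lost at 1.26 (0.310), 0.99 (0.422) and 1.42 (0.281).

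The cIAP genes had opposite signs over time in Kaede-red cells. Birc2 had 11.2, 10.3, 10.5 and 9.89 CPM at 24h against 5.32 to 8.17 CPM at 72h, without overlap, and missed the threshold (log2 fold change -0.66, SE 0.22, adjusted p = 0.0580, edgeR). It passed without Kaede-green 24h replicate 1 (0.0460), 3 (0.0460) or 4 (0.0301). With DESeq2 (0.00443), under RLE factors (0.0422) and without Rn45s (0.0386) it also passed, where 13.1, 8.31 and 10.5% of all genes were called. The same held with only the groups compared in the fit (0.0198), where 15.9% were called. Among genes with at least 10 counts in every library it passed (0.00840) where 31% were called. Birc3 had 9.37 to 12.2 CPM at 24h and 13.3 to 15.4 CPM at 72h, also without overlap (0.46, SE 0.23, adjusted p = 0.231). In all, 5 of the 9 genes had no overlap between the times in Kaede-red cells, against 20.6% of all tested genes.

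In Kaede-green cells 0 of the 9 genes were called between 72h and 24h by edgeR, where 0% of all tested genes were called. Over all genes 835 had an unadjusted p under 0.05, DESeq2 called 13 and the fit with no filter 37, and of the 9 genes 0 had an unadjusted p under 0.05. None of the 9 genes separated the times, against 3.00% of all genes. The receptors gave -0.12 (interval -0.53 to 0.29) for Tnfrsf1a, -0.35 (interval -0.84 to 0.15) for Tnfrsf1b and -0.49 (interval -1.33 to 0.35) for Tnfrsf21.

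Whether the red-green difference itself changed between the times was tested as an interaction. It was called for 1 of the 9 genes, Tnfrsf1b, against 0.757% of all tested genes (change of the log2 fold change 1.38, SE 0.33, adjusted p = 0.0465, edgeR). The call sat near the threshold and did not survive the loss of any 1 of 12 libraries, with adjusted p between 0.0533 and 0.125, and held without Kaede-green replicate 4 of either time or Kaede-red 24h replicate 1 or 2. Tnfrsf21 gave 1.66 (adjusted p = 0.115), Birc2 -1.10 (0.0988), Birc3 0.94 (0.180) and Tnfrsf1a 0.79 (0.144). Tnfrsf21 passed without Kaede-green 24h replicate 4 (0.0414) or Kaede-red 24h replicate 1 (0.0464) and with no filter (0.0228), Birc2 with DESeq2 (0.0133) and among genes with at least 10 counts in every library (0.0237), and Tnfrsf1a with DESeq2 (0.0360), which called 3.33% of all genes. The fit with no filter called 1.03% of all genes, and that with at least 10 counts in every library 5.06%. DESeq2 gave no adjusted p to 4301 of the 9642 genes in the interaction, and its share counts these as not called. On library size alone Tnfrsf1b gave 0.81 (adjusted p = 1).

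**Figure D3:**
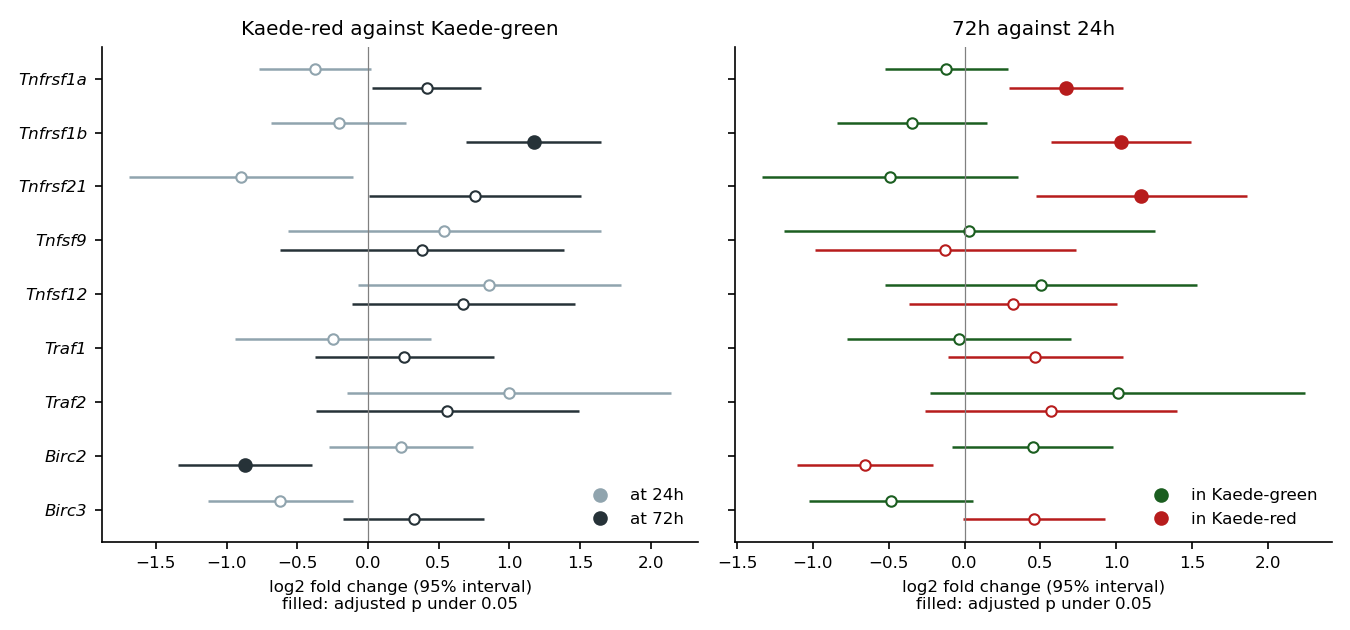
Log2 fold change with its 95% interval for the 9 tested genes, Kaede-red against Kaede-green at 24h and 72h on the left and 72h against 24h in each colour on the right, with filled points for adjusted p under 0.05. At 72h the filled points are Tnfrsf1b at 1.17 and Birc2 at -0.87 (on library size alone 1.12), and with time in Kaede-red cells Tnfrsf1a at 0.67, Tnfrsf1b at 1.03 and Tnfrsf21 at 1.17.

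Shares of reads within a library do not depend on the scaling of libraries, and they were computed for the 2 TNF receptors and the 2 cIAPs after the values above were seen. Of the reads of Tnfrsf1a and Tnfrsf1b together, Tnfrsf1b took 48.5, 41.8, 52.5 and 54.2% in the Kaede-green 72h libraries and 64.4, 65.0, 58.9 and 61.9% in the Kaede-red 72h libraries. The shares did not overlap, with means of 49.2 ± 5.49% and 62.6 ± 2.79% (SD, n = 4), and the 13.3 points between them gave p = 0.0286 in a two-sided exact permutation test, the smallest that 4 against 4 libraries can give. Adjusted over the 8 comparisons of shares, p was 0.0763 in that exact test. At 24h the shares were 53.9 ± 2.21% for Kaede-green cells and 55.3 ± 7.05% for Kaede-red cells (exact p = 0.771). Between the times in Kaede-red cells the share differed by 7.29 points (exact p = 0.114).

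Birc2 took 51.3, 55.7, 47.4 and 51.1% of the reads of both cIAP genes in the Kaede-green 72h libraries and 28.6, 34.2, 34.6 and 28.8% in the Kaede-red 72h libraries. In the Kaede-red 24h libraries the share was 52.9, 48.6, 46.4 and 51.3%. The Kaede-red 72h shares lay below all of these, by 19.8 points against Kaede-green 72h cells and 18.3 points against Kaede-red 24h cells on average (exact permutation p = 0.0286 for each, adjusted 0.0763). Kaede-green 24h libraries had a wide spread, from 26.6 to 47.9%, on 40 to 94 reads of both genes, and overlapped the Kaede-red 72h libraries. Their mean of 37.6% lay 12.2 points below that of Kaede-red 24h and 13.8 points below that of Kaede-green 72h libraries (exact p = 0.0571 for each, adjusted 0.0914), so the sign between the colours at 24h was opposite to that at 72h, a difference that was not tested. Birc2 and Birc3 are related genes that lie next to each other on chromosome 9, at 7818227 to 7837064 and 7848699 to 7873186 (mm10, both on the - strand), and how reads that fit both were counted is not given in the sources used here.

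**Figure D4:**
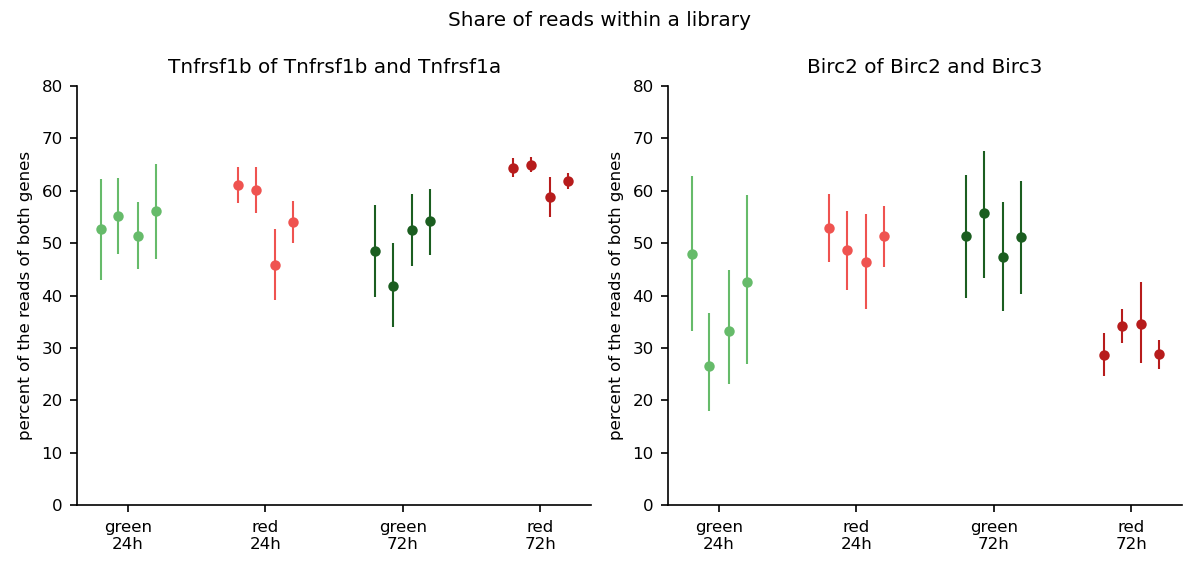
Percent of the reads of both genes that belonged to Tnfrsf1b (left, with Tnfrsf1a) and Birc2 (right, with Birc3) in each library, with exact 95% binomial intervals that cover counting error only. Kaede-red 72h libraries lie between 58.9 and 65.0% on the left and between 28.6 and 34.6% on the right, and Kaede-green 72h libraries between 41.8 and 54.2% and between 47.4 and 55.7%.

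None of the ligands passed the edgeR test in any comparison. Tnfsf12, which encodes TWEAK, had 2.23, 2.87, 0.255 and 2.86 CPM in Kaede-green 24h, 3.95, 4.01, 2.54 and 3.10 in Kaede-red 24h, 1.83, 2.44, 3.89 and 2.34 in Kaede-green 72h and 4.78, 4.08, 4.54 and 3.83 in Kaede-red 72h libraries. The Kaede-red 72h libraries were the highest as a group. The Kaede-red 24h libraries at 3.95 and 4.01 CPM and the Kaede-green 72h library at 3.89 CPM reached into their range. Over both times the log2 fold change was 0.77 (SE 0.30, adjusted p = 0.0675, edgeR). DESeq2 called it in that comparison (adjusted p = 0.0365), as did edgeR with no filter on low counts (0.0444) and without Kaede-green 24h replicate 2 (0.0472) or 4 (0.0412) or Kaede-green 72h replicate 3 (0.0482). Of all genes, DESeq2 called 23.9% in that comparison and the fit with no filter 10.2%. Tnfsf12 overlaps a read-through gene, Tnfsfm13, on its own strand and Tnfsf13os on the other, so reads there may belong to more than 1 gene.

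Tnfsf9, the ligand of the T cell co-stimulatory receptor CD137, had 0.305 to 3.38 CPM in Kaede-green and 1.84 to 3.65 CPM in Kaede-red libraries, on 1 to 13 reads in the former. Its log2 fold change over both times was 0.46 with an interval of -0.29 to 1.21. Tnfsf13b, which encodes the B cell survival factor BAFF, had reads in 12 of the 16 libraries and at most 38, and was at 0 in 3 Kaede-green 24h libraries and 1 Kaede-red 24h library. Its mean was 0.191 ± 0.382, 0.264 ± 0.225, 0.576 ± 0.323 and 0.632 ± 0.241 CPM in Kaede-green 24h, Kaede-red 24h, Kaede-green 72h and Kaede-red 72h libraries. Exact permutation tests gave p = 0.649 between the colours over both times, 0.857 at 72h, 0.171 between the times in green and 0.0857 in red cells. At these counts no difference in Tnfsf13b was detectable on the TMM scale. On library size alone the difference over both times was 0.852 in place of 0.0647 CPM (exact permutation p = 0.00449), a setting under which 96.7% of tested genes were called in the same comparison.

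The TRAF adaptors were not called in any comparison either. Traf1, which forms complexes with TRAF2 and is itself induced by NF-κB, had 5.38 ± 1.89, 4.28 ± 1.30, 5.07 ± 1.59 and 5.95 ± 1.11 CPM in Kaede-green 24h, Kaede-red 24h, Kaede-green 72h and Kaede-red 72h cells. Its log2 fold change over both times was 0.00 with an interval of -0.46 to 0.47. Traf2 had 0, 1.23, 3.06 and 0.409 CPM in Kaede-green 24h libraries, on 0 to 12 reads, and 2.59 to 6.05 CPM in Kaede-red 72h libraries (over both times 0.78, interval 0.04 to 1.52, adjusted p = 0.129, edgeR). Without Kaede-green 24h replicate 3, the highest library of that group, Traf2 was called (1.38, adjusted p = 0.0244). Its groups overlapped in every comparison. Traf2 overlaps the antisense pseudogene Gm13433, and Tnfsf9 and Tnfsf13b overlap the antisense genes Gm11110 and Gm44789, and the strand setting of the counting is not given in the sources used here.

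TNF and the rest of the pathway were examined in 70 further genes, of which 46 were tested. Tnf, the ligand of both TNF receptors, had 6.13, 6.55, 5.35 and 3.68 CPM in Kaede-green 24h, 9.31, 7.66, 10.5 and 10 in Kaede-red 24h, 3.66, 6.41, 4.62 and 5.46 in Kaede-green 72h and 8.34, 7.74, 7.86 and 7.94 in Kaede-red 72h libraries. All 8 Kaede-red libraries lay above all 8 Kaede-green libraries, and Tnf was higher in Kaede-red cells over both times (log2 fold change 0.72, SE 0.18, adjusted p = 0.00461, edgeR). At 24h and 72h taken singly it gave 0.79 and 0.65, with adjusted p = 0.0664 and 0.0742.

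Among the 11 other receptors tested, Tnfrsf11a, which encodes RANK, was the 1 gene higher in Kaede-red cells over both times, against 10% of all genes, with none lower. It was also the 1 called at 24h, against 3.22% of all genes that were higher. Its libraries had 4.10 to 8.36 CPM in Kaede-green 24h, 9.25 to 14.2 in Kaede-red 24h, 7.33 to 9.97 in Kaede-green 72h and 16.9 to 19.4 in Kaede-red 72h cells. It was called over both times (log2 fold change 1.04, SE 0.17, adjusted p = 2.65e-05), at 24h (0.96, adjusted p = 0.0144), at 72h (1.11, adjusted p = 0.000656) and with time in Kaede-red cells (0.64, adjusted p = 0.0459). The call at 24h was lost without Kaede-green 24h replicate 2 or 3 or Kaede-red 24h replicate 2 (adjusted p 0.0578 to 0.0636), with only the groups compared (0.0561) and with libraries thinned (0.0959). The one with time was lost in 11 of 16 such fits (up to 0.160), under RLE factors (0.0698), with no filter (0.0726), without Rn45s (0.0517) and with libraries thinned (0.0860). Cd40, the receptor of T cell help, fell in Kaede-red cells at 72h, from 21.9 to 36.2 CPM in Kaede-green to 14.7 to 21.8 CPM in Kaede-red libraries (-0.69, adjusted p = 0.0300), and its sign turned on library size alone (1.27 against a median of 2.04). That call was lost without Kaede-green 72h replicate 1 or 4 or Kaede-red 72h replicate 1, 3 or 4, with adjusted p from 0.0505 to 0.121, and with no filter on low counts (0.124).

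Of the 6 other ligands tested, Kaede-red cells had 3 at a higher and 1 at a lower level over both times, against 10% and 10.3% of all genes. At 72h and with time in Kaede-red cells 1 was lower in each, against 8.76% and 3.76%, and 1 was higher at 72h, against 8.06%. Besides Tnf, Tnfsf8, the ligand of CD30, gave 3.08 (SE 0.62, adjusted p = 0.000443), and Tnfsf15, which encodes TL1A, gave 2.06 (SE 0.70, adjusted p = 0.0355). Both rested on few Kaede-green reads, Tnfsf8 on 0 to 3 and Tnfsf15 on 0 to 5 a library, and the call of Tnfsf15 was lost in 11 of the 16 fits without 1 library (adjusted p up to 0.103) and with blocks of replicate numbers (0.0518 and 0.0713). At 72h Tnfsf8 had 247 reads in Kaede-red and 2 reads in Kaede-green libraries, a ratio of 14.5 for the scaled libraries with an exact 95% counting interval of 3.96 to 120. Tnfsf13, which encodes APRIL, was lower over both times (-0.67, SE 0.18, adjusted p = 0.00850), at 72h (-1.03, adjusted p = 0.00481) and with time in Kaede-red cells (-0.90, adjusted p = 0.0200), and on library size alone the first turned to 1.47 and the second to 0.96, against medians of 2.20 and 2.04. Its Kaede-green 72h libraries had 10.9 to 12.1 CPM and its Kaede-red 72h libraries 4.54 to 6.86 CPM, without overlap. Its call with time was lost without Kaede-red 24h replicate 2 or 3 or Kaede-red 72h replicate 1 or 4, with adjusted p up to 0.101, and with libraries thinned both this call and that at 72h were lost (0.400 and 0.0592).

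Among the 29 other adaptors and ubiquitin enzymes tested, Kaede-red cells had 4 at a higher level over both times, against 10% of all genes, and none at a lower one, against 10.3%. Ripk1 and Ripk3, the kinases of the TNFR1 and necroptosis complexes, gave 0.72 (SE 0.17, adjusted p = 0.00270) and 0.89 (SE 0.25, adjusted p = 0.0114). Tnip1, a ubiquitin-binding inhibitor of NF-κB, gave 0.70 (SE 0.18, adjusted p = 0.00399). Tab2, which couples ubiquitin chains to the kinase TAK1, gave 0.97 (SE 0.18, adjusted p = 0.000129). The same 4 were the adaptors called at 72h, against 8.06% of all genes, where Tab2 had 5.48 to 8.06 CPM in Kaede-green and 13.2 to 21.5 CPM in Kaede-red libraries (1.37, adjusted p = 0.000137) and Tnip1 5.11 to 9.36 against 13.6 to 18.6 CPM (1.26, adjusted p = 0.000281). With time in Kaede-red cells 2 were called, against 4.92% of all genes that rose. Tnip1 rose by 1.13 (adjusted p = 0.00193) and Tab2 by 0.76 (adjusted p = 0.0277) on the log2 scale. The last call was lost without Kaede-red 24h replicate 3 or 4 or Kaede-red 72h replicate 1 or 4 (adjusted p up to 0.122), and that of Ripk3 at 72h without Kaede-green 72h replicate 1 or 2 or Kaede-red 72h replicate 1, 2 or 4 (up to 0.120). With libraries thinned, Tab2 with time (0.169) and Ripk3 over both times (0.0750) and at 72h (0.134) were lost, and Ripk3 at 72h also with the block within time (0.0509).

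**Figure D5:**
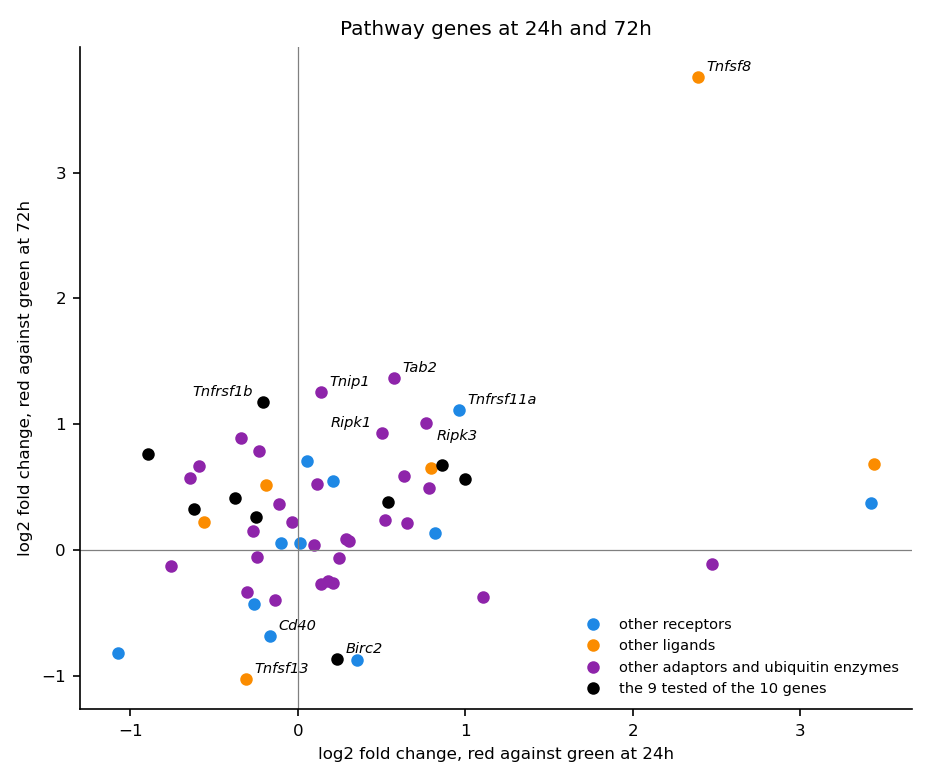
Log2 fold change of Kaede-red against Kaede-green cells at 24h (horizontal) and 72h (vertical) for the 9 tested genes and the 46 other pathway genes, coloured by role and named where called at either time. Tnfrsf11a is the named gene past the threshold at both, at 0.96 and 1.11, and Birc2, Cd40 and Tnfsf13, all below 0 at 72h, turn above 0 on library size alone.

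Over both times these lists had medians of 0.04 for the other receptors, 0.44 for the other ligands and 0.19 for the other adaptors, beside 0.06 over all tested genes. At 72h the medians were 0.06, 0.58 and 0.21 beside 0.03, and the median of the 9 genes was 0.42. No list was tested as a list. With the Rn45s share as a covariate none of the 46 genes was called over both times, at 24h or at 72h, and 1 was with time in Kaede-red cells. Of all tested genes 1.62, 2.14, 1.05 and 1.14% were called, in that order.

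At 72h the summed markers of neutrophils, endothelial cells and fibroblasts did not overlap between the colours. Those of monocytes and macrophages, dendritic cells, and T and NK cells did. Every marker given below as higher or lower was called in the comparison over both times, not at 72h. The 8 neutrophil markers in the files summed to 10.4 to 12.2 CPM in Kaede-green 72h and 17.8 to 22.4 CPM in Kaede-red 72h libraries. Of the 8, 2 were tested, and Csf3r was higher in Kaede-red cells over both times. Csf3r reached 726 reads in a library and Mmp8 134, whereas S100a8 and S100a9 had at most 12 and 21. The sum therefore rested on few genes. The endothelial list, 3 of 5 tested, had 9.77 to 19.2 and 21.9 to 36.9 CPM. Kdr and Pecam1 were higher, Cdh5 was lower and Cldn5 was at 0 in 14 libraries. Kdr and Pecam1 reached 1059 and 482 reads in a library, and Cdh5 at most 57. The fibroblast list, 3 of 6 tested, had 43.0 to 48.9 and 11.3 to 18.3 CPM, with Col1a1, Col1a2 and Col3a1 lower in Kaede-red cells over both times. The monocyte and macrophage list had 1360 to 1830 and 1400 to 1750 CPM, with 5 genes higher and 1 lower over both times. Dendritic cell markers summed to 8.55 to 12.8 and 8.22 to 10.2 CPM, with Ccr7 higher and Fscn1 lower, and T and NK cell markers to 0 to 3.38 and 1.81 to 4.27 CPM, with Cd4 higher. B cell, tumour epithelial, erythroid and mast cell lists stayed at or below 9.68 CPM in all 16 libraries, with none of their genes called. Their part in the levels of the TNF superfamily genes was not tested.

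Across the 16 libraries, each tested gene had a gene of most similar log2 CPM. For Tnfrsf1b it was Anxa6 (Pearson r = 0.952, and 0.905 after each group's mean was taken off), for Tnfrsf1a Cd44 (0.962 and 0.924), for Tnfrsf21 Mgat1 (0.891 and 0.904), for Birc2 Hist2h2aa1 (0.883 and 0.777) and for Birc3 Flot2 (0.819 and 0.756). Tnfsf9 was nearest to Dnaaf5 (0.907), Tnfsf12 to Trim28 (0.918), Traf1 to Cbfa2t3 (0.813) and Traf2 to Polk (0.917). Among themselves and within groups, the 3 receptors had r between 0.668 and 0.691. Each most similar gene was the highest of 9641 genes by r across the 16 libraries, before group means were taken off. The libraries share depth and scaling, and all these correlations are a description only.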

How the data were processed

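The authors sorted the cells, made libraries from 5 ng of RNA with a strand-keeping pico-input kit that removes ribosomal fragments, and sequenced paired reads of 150 bases. Per the labels and the processing notes, reads were trimmed with Trim Galore, checked with FastQC, aligned to mm10 with HISAT2 and counted with featureCounts. Versions, the annotation and the strand setting are not given in the sources used here. The deposited files hold raw counts per gene symbol for 16 libraries, 4 in each of 4 groups taken from the sample titles.

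Genes were kept by filterByExpr in edgeR 4.0.16 (R 4.3.3, limma 3.58.1), scaled by TMM and fitted with the quasi-likelihood test, 1 mean per group over all 16 libraries, common dispersion 0.0702. Calls are at a Benjamini-Hochberg adjusted p under 0.05 over 9642 genes, for red against green over both times and at each time, 72h against 24h in each colour, and the interaction. Log2 CPM used a prior count of 2. RPKM used exon lengths of GENCODE M21 on mm10. Tnfsf13b was compared in CPM by two-sided exact permutation tests, over 70 relabellings of 4 against 4 libraries, where the smallest p is 0.0286, or 4900 relabellings within time for both times together. Binomial intervals are exact (Clopper-Pearson, 95%) and cover counting error only, as reads are not independent molecules. The test was checked on simulated counts.

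Named were all 10 genes, Tnf, and called genes among 70 other pathway genes. Of these, the plan took up to the 5 largest rises and 5 largest falls per list over both times. In each other comparison it took up to the 2 largest rises and 2 largest falls. A gene named in 1 comparison was also given in others, past these limits. Members and lists were chosen with earlier results of these data known. Alternatives were RLE factors, library size alone, no filter, at least 10 counts in every library, DESeq2 1.42.0, only the groups compared, blocks of replicate numbers, each library left out, Rn45s left out or its share as a covariate, and thinning each library to 468092 counts outside Rn45s. Within groups no library was a copy of another: over 24 pairs the chi-square per gene was 3.21 to 95.6.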

Additional observations from a re-analysis of the deposited data

Results flagged for a closer look

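Of 40 sets of 4 libraries, 1 for each of the 10 genes in each group, 2 held a library far from the other 3, where chance gives about 5%. Tnfsf13b was at 0.764 CPM in Kaede-green 24h replicate 3, on 3 reads, and at 0 in the other Kaede-green 24h libraries. Traf1 was at 7.59 CPM in Kaede-red 72h replicate 1, on 194 reads, with the nearest library at 5.56 CPM, a gap just past the limit for 4 libraries.

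The difference between Kaede-red and Kaede-green cells changed between the times for Tnfrsf1b, by 1.38 on the log2 scale in the test of the interaction (adjusted p = 0.0465, edgeR), from -0.21 at 24h to 1.17 at 72h. The call was lost in 12 of the 16 fits without 1 library (adjusted p 0.0533 to 0.125) and on library size alone (0.81, adjusted p = 1).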

How the results depend on the processing

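Depth limits the Kaede-green side most, where Tnfsf9, Tnfsf12, Traf2 and Tnfsf13b rested on 16 reads or fewer a library. Tnfrsf21 had 5 to 35 reads a library there. Of the log2 fold changes under alternatives other than leaving out a library, 620 kept their direction and side of the threshold, 52 lost a call, 30 gained one and 39 changed sign, and with a library left out the numbers were 1097, 76, 11 and 32. Where no cause is given, the cause was not tested.

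On library size alone the median of all genes moved to 2.20 over both times, 2.33 at 24h, 2.04 at 72h, 0.74 with time in green and 0.42 with time in red cells, and signs turned with it. At 72h Birc2 was then 1.12, Cd40 1.27 and Tnfsf13 0.96. At 24h Birc3 was 1.57, Tnfrsf1a 1.96, Tnfrsf1b 2.21, Tnfrsf21 1.49 and Traf1 2.13. Over both times Birc2 was 1.82, Birc3 1.94, Tnfrsf21 2.05 and Tnfsf13 1.47. With time in Kaede-green cells Birc3 was 0.13, Tnfrsf1a 0.61, Tnfrsf1b 0.45, Tnfrsf21 0.30 and Traf1 0.62, and in Kaede-red cells Tnfsf9 was 0.25. Of the 9 genes, 9 were then called over both times, 9 at 24h, 9 at 72h, 0 with time in Kaede-red cells and 0 in the interaction, and the CPM difference of Tnfsf13b over both times was 0.852, and of the 46 other pathway genes 46, 45, 43 and 0 in the first 4 of these. In the same order, 96.7, 93.9, 84.4, 0.0933 and 0.0104% of all genes were called.

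With the Rn45s share as a covariate the 9 genes had 0 calls at 72h, over both times or with time in Kaede-red cells, and the other pathway genes had 0 at 72h, 24h and over both times and 1 with time in Kaede-red cells. Of all genes that setting called 1.05% at 72h, 2.14% at 24h, 1.62% over both times and 1.14% with time in Kaede-red cells. The interaction call of Tnfrsf1b was kept in that setting, where 0.353% of all genes were called. Over both times Tnfrsf1a was then -0.18, Tnfrsf1b -0.18 and Traf1 -0.27, at 72h Tnfrsf21 was -0.016 and Traf1 -0.042, and with time in Kaede-green cells Tnfsf9 was -0.050. With DESeq2 Tnfrsf1a was -0.011 and Traf1 -0.025 over both times, 2 of the 9 genes were called over both times and 3 in the interaction, and of the other genes 7 with time in Kaede-red cells, 3 at 24h and 2 in the interaction. DESeq2 called 23.9% of all genes over both times, 3.33% in the interaction, 13.1% with time in Kaede-red cells and 9.74% at 24h. These shares count genes without an adjusted p as not called, 4301 in the interaction and 1685 with time in Kaede-red cells. RLE factors gave -0.0073 for Tnfrsf1a and -0.028 for Traf1 over both times, and leaving Rn45s out gave -0.012 and -0.031.

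With at least 10 counts in every library Traf1 was 0.0060 with time in Kaede-green cells. There, 2 of the 5 genes left were called in the interaction, against 5.06% of all genes. Of the 16 other genes left 5 were called over both times, against 43.8% of all genes. With no filter Tnfrsf21 was 0.050 over both times, and 2 of the 10 genes were called over both times and 2 in the interaction, against 10.2% and 1.03% of all genes. With libraries thinned to equal counts outside Rn45s, 468092 each, Birc2 was called over both times (-0.57, adjusted p = 0.0435). It was -0.048 at 24h, Tnfrsf1a 0.019 and Traf1 0.23 with time in Kaede-green cells, and Tnfrsf1a -0.0072 and Traf1 -0.11 over both times, with 2 of 8 genes called over both times, and of 32 other genes 5 at 72h, 0 at 24h and 1 with time in Kaede-red cells. Of all genes in the thinned fit, 23% were called over both times, 19.3% at 72h, 8.99% at 24h and 8.73% with time in Kaede-red cells. With only the groups compared in the fit, 8 other genes were called with time in Kaede-red cells and 0 at 24h, against 15.9% and 7.92% of all genes.

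Libraries were correlated over all tested genes on log2 CPM after the group mean of each gene was taken off. Same-numbered libraries of the colours then correlated at 0.0493 to 0.153 at 24h and at -0.0183 to 0.0287 at 72h. Not every library correlated best with its own number. Each Kaede-red 24h library correlated best with the same-numbered Kaede-red 72h library, at 0.0446 to 0.138. Such weak correlations cannot show whether same-numbered libraries came from the same tumour, which the sample titles do not state. The main fit did not take the numbers as pairs. With a replicate block of these numbers 0 of the 9 genes were called over both times (Tnfrsf1b adjusted p = 0.0534, edgeR), against 19.2% of all genes. Traf1 was then -0.036, and with the block within time it was -0.030.

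Leaving out 1 library at a time, the genes called of the 9 ran from 0 to 2 over both times, 0 to 2 at 24h, 1 to 4 with time in Kaede-red cells and 0 to 2 in the interaction, and the other genes called from 0 to 2 at 24h and 1 to 5 with time in Kaede-red cells. The shares of all genes called in these fits are not given here, so the counts have no background beside them. Of the 9 genes, 1 was called with time in Kaede-red cells without any 1 of Kaede-red 24h replicates 3 and 4 and Kaede-red 72h replicates 1 and 3. Of the other genes, 0 were called at 24h without Kaede-green 24h replicate 2 or 3 or Kaede-red 24h replicate 2, and 1 with time in Kaede-red cells without Kaede-red 24h replicate 3 or Kaede-red 72h replicate 1 or 4. Over both times Traf1 ran from -0.14 to 0.10, Birc3 from -0.26 to 0.048, Tnfrsf1a from -0.053 to 0.066 and Tnfrsf21 from -0.25 to 0.058. With time in Kaede-green cells Traf1 ran from -0.32 to 0.11, Tnfsf9 from -0.49 to 0.48 and Tnfsf12 from -0.016 to 0.77, and in Kaede-red cells Tnfsf9 from -0.31 to 0.079. In the interaction Tnfsf9 ran from -0.63 to 0.37 and Tnfsf12 from -0.47 to 0.31. The CPM difference of Tnfsf13b ran from -0.0103 to 0.283 at 24h and from -0.0616 to 0.17 at 72h. For the shares of reads, where this alternative was added after seeing the data, the 24h difference of Tnfrsf1b ran from -0.54 to 4.55 points.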
